A study of Mus musculus with 12 samples.

Results

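The genes described here encode the purine receptors of macrophages and the enzymes that break down their ligands: the adenosine receptor genes Adora2a and Adora2b, the ATP-gated channel genes P2rx4 and P2rx7, the nucleotide receptor genes P2ry2, P2ry6 and P2ry14, the ectonucleotidase gene Entpd1 and the adenosine deaminase gene Ada. They were taken by symbol from the deposited table of 54532 genes. Each of the 9 matched 1 row, and all 9 were among the 14506 genes with enough counts to be tested. The study kept macrophages that reside in the peritoneum of C57BL/6 mice in basic DMEM for 24 h, in MOPS or in HEPES buffer, and measured RNA by sequencing. The groups of 3 libraries each were MOPS with LPS, HEPES with LPS, MOPS without LPS and HEPES without LPS. LPS, the bacterial cell-wall component sensed by Toll-like receptor 4, was given at 10 ng/ml for 2 h. The design text names pH 6.8 and 7.4 and then MOPS and HEPES, so that pH 6.8 is taken to go with MOPS from word order alone. Buffer and pH cannot be told apart, and each comparison of media is of the medium as a whole. The labels do not say whether the 3 libraries of a group came from separate mice or cultures, so every p-value rests on the spread among these 12 libraries alone, which may be technical.

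Nucleotides that leave stressed or dying cells are danger signals. ATP opens the P2X channels, while ATP, UTP, UDP and UDP-glucose act on P2Y receptors that couple to G proteins. CD39, the product of Entpd1, strips phosphates from ATP and ADP to leave AMP, and CD73, the product of Nt5e, turns AMP into adenosine. Adenosine then acts on its own receptors, of which those encoded by Adora2a and Adora2b raise cAMP and restrain inflammatory output in macrophages, until adenosine deaminase turns it into inosine. The channel encoded by P2rx7 is best known in macrophages for letting ATP trigger the NLRP3 inflammasome.

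Libraries held 20114613 to 24734853 counts. Levels are given in CPM, counts scaled to a common library size and for composition, and in RPKM, the same per kilobase of gene length, where genes are set side by side. All 11 listed markers of resident peritoneal macrophages were tested. With LPS, MOPS was higher for 3 of them and lower for 5, and without LPS it was higher for 3 and lower for 6. Their summed level was 17430 to 19783 CPM in LPS-treated MOPS cultures and 27520 to 29266 CPM in LPS-treated HEPES cultures, and 16788 to 17054 CPM in untreated MOPS and 26239 to 27623 CPM in untreated HEPES. Most of that sum was the lysozyme gene Lyz2. The other 10 markers summed to 4929 to 5141 CPM in LPS-treated MOPS cultures and 4803 to 5000.0 CPM in LPS-treated HEPES cultures, which overlapped, and to 4289 to 4440 CPM in untreated MOPS and 4717 to 4866 CPM in untreated HEPES. Csf1r, Cd68 and Adgre1 held most of this sum, and lesser markers lay further apart. With LPS, Timd4 averaged 28.2 CPM in MOPS and 101 CPM in HEPES, Gata6 48.1 and 133 CPM, and Cd5l 92.3 and 205 CPM. Without LPS, Timd4 and Cd5l were lower in MOPS too, but Gata6 was higher there, at 36.7 CPM against 30.2 CPM in HEPES. The 3 higher in MOPS with LPS were Mertk, Csf1r and Fcgr1. Mertk averaged 129 CPM in MOPS and 63.2 CPM in HEPES, Csf1r 2150 and 1680 CPM, and Fcgr1 7.24 and 4.87 CPM. B cell markers also moved with the medium: with LPS, MOPS was higher for 9 of the 10 and lower for 1, and without LPS it was higher for 6 and lower for 1. With LPS, 8 of the 10 fell in MOPS and all 10 in HEPES, and none rose in either. The interaction was higher for 8 and lower for none. P2rx4, P2rx7 and P2ry14 below had these signs too, but P2ry14 was lower in MOPS under both conditions and P2rx4 without LPS. Of the 11 macrophage markers, 7 rose and 3 fell with LPS in MOPS, and 5 rose and 4 fell in HEPES. Their interaction was higher for 5 and lower for 1, and Mertk, Fcgr1 and Icam2, which fell in both media, were among the 5. Beside these counts, 53.8% of all genes tested were called between the media with LPS and 49.7% without. LPS raised 34.1% and lowered 34.9% of all genes in MOPS, and raised 35.6% and lowered 41.2% in HEPES. The interaction was higher for 21.9% of all genes and lower for 17.6%. The B cell markers summed to 130 to 143 CPM in LPS-treated MOPS cultures against 35.8 to 42.7 CPM in LPS-treated HEPES cultures. Without LPS they summed to 220 to 229 CPM in MOPS against 111 to 186 CPM in HEPES. No B cell marker was at 0 in any group. The part of B cells or of a change in macrophage makeup in the results below was not tested. Fewer cells of a type and less RNA per cell cannot be told apart in such bulk samples. Dendritic cell and small peritoneal macrophage markers summed to 235 to 255 CPM with LPS in MOPS and 243 to 293 CPM in HEPES. Without LPS they summed to 174 to 192 CPM in MOPS and 182 to 200 CPM in HEPES. The part of such cells in the results below was not tested either. Mast cell markers summed to 18.2 to 28.2 CPM over the 12 libraries. T and NK cell markers summed to 1.75 to 4.46 CPM over the 12 libraries, with Ncr1 at 0 in every group. Of the granulocyte markers, Csf3r stood at 163 to 312 CPM over the 12 libraries, the other 5 summed to 3.05 to 16.8 CPM, and Ly6g was at 0 in every group.

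The first comparison asked how LPS changed the purine genes in each medium. The adenosine receptor genes and the P2Y receptor genes P2ry2 and P2ry6 rose, and P2rx4, P2rx7 and P2ry14 fell, in both media. In MOPS, 5 of the 9 genes rose and 3 fell, with Entpd1 as the fifth that rose, a call that was lost in MOPS and turned round in HEPES when libraries were scaled by total counts alone. Of all genes tested there, 69% were called, 34.1% as higher and 34.9% as lower. In HEPES, 5 of the 9 also rose and 3 fell, where 76.9% of all genes were called, 35.6% as higher and 41.2% as lower. The call rule was a p under 0.05 in edgeR's quasi-likelihood test after Benjamini-Hochberg adjustment, whatever the fold. The median log2 change of the 9 was 0.53 in MOPS and 0.33 in HEPES, where the medians over all genes were -0.035 and -0.084. Groups did not overlap for 8 of the 9 genes in MOPS and for 8 of 9 in HEPES, as for 71.9% and 78.4% of all genes. Scaling by total counts alone moved the median of all genes from -0.03 to -0.55 in MOPS and from -0.08 to -0.67 in HEPES, so changes by LPS are relative to the composition scaling.

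**Figure D1:**
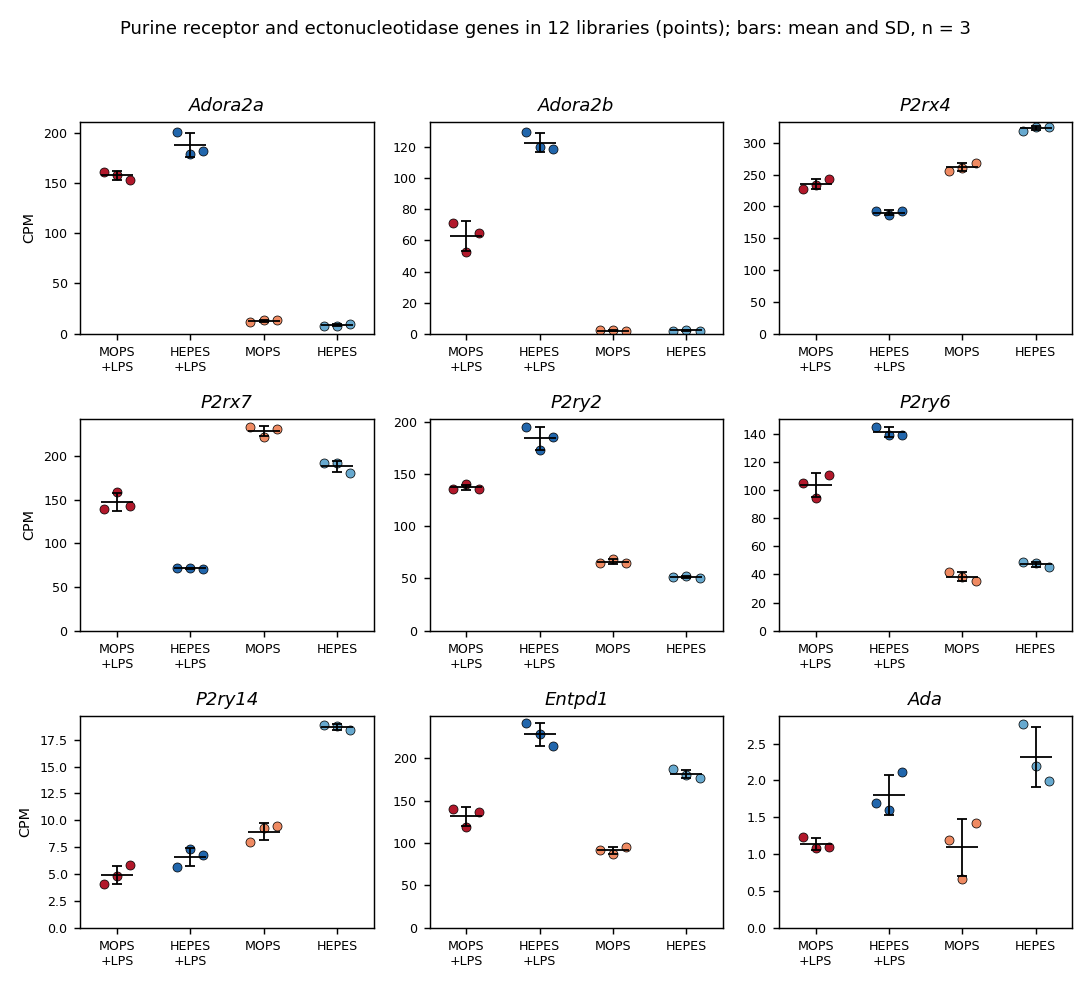
Level of each of the 9 genes in CPM (linear axis from 0) in every library, with the mean and SD of 3 libraries a group as bars. Adora2b lies at 52.6 to 130 CPM in the 6 libraries with LPS and at 1.67 to 2.51 CPM in the 6 without, while P2rx7 is lowest in HEPES with LPS, at 70.3 to 72.1 CPM.

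Adora2a and Adora2b encode the adenosine receptors that signal through cAMP, of which the Adora2b product needs more adenosine to respond. Adora2a stood at 161, 158 and 153 CPM in LPS-treated MOPS cultures and at 201, 179 and 182 CPM in LPS-treated HEPES cultures. Without LPS it stood at 11.3, 13.2 and 13.2 CPM in MOPS and at 7.89, 8.0 and 9.47 CPM in HEPES. The libraries with LPS were all far above those without, and no 2 of the 4 groups overlapped. The log2 change by LPS was 3.64 ± 0.063 (standard error) in MOPS and 4.47 ± 0.066 in HEPES (adjusted p = 5.08e-29 and 6.23e-31, edgeR), or 12.5-fold and 22.2-fold. The order of the media turned with LPS. Adora2a was lower in MOPS than in HEPES with LPS (-0.25 ± 0.050, adjusted p = 8.60e-05, edgeR) and higher in MOPS without it (0.58 ± 0.082, adjusted p = 7.19e-07, edgeR). Adora2a is ENSMUSG00000020178 on chromosome 10 from 75316877 to 75334784 in mm10.

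Adora2b rose most of the 9 genes. It stood at 71.2, 52.6 and 64.9 CPM in LPS-treated MOPS cultures and at 130, 120 and 119 CPM in LPS-treated HEPES cultures. Without LPS it had only 41 to 66 counts a library in MOPS (1.67 to 2.20 CPM) and 53 to 72 counts in HEPES (1.89 to 2.51 CPM). The 2 media overlapped without LPS and were apart with it. LPS raised Adora2b 31.7-fold in MOPS (log2 4.99 ± 0.14, adjusted p = 6.62e-14, edgeR) and 58-fold in HEPES (5.86 ± 0.13, adjusted p = 1.96e-15). With LPS its level in MOPS was 0.51 times that in HEPES (-0.97 ± 0.085, adjusted p = 1.51e-07, edgeR). Without LPS the difference of -0.10 ± 0.24 did not pass the test (adjusted p = 0.765, edgeR).

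The ratio of the 2 receptor genes per length is given as a description, without a test. Adora2b stood at 66.4% ± 9.72 of the RPKM of Adora2a in MOPS with LPS and at 109% ± 2.15 in LPS-treated HEPES cultures (SD, n = 3 each). In untreated cultures it stood at 26.1% ± 4.47 in MOPS and 42.0% ± 9.20 in HEPES. The libraries of the 4 groups did not overlap in this ratio, with HEPES with LPS highest and MOPS without LPS lowest. Adora2b is ENSMUSG00000018500 on chromosome 11 from 62248984 to 62266453 in mm10. Its RefSeq promoter window is shown because it had the largest rise of the 9 genes. The window runs from 250 bases before to 50 after the annotated start, at chr11:62248734-62249033 on the + strand of GRCm38.p6, the assembly that mm10 names. It is 70% G and C and holds 27 CG pairs, where the medians over 32851 such windows were 52.7% and 7. None of the motifs searched was found in it, so that it has no capitals.
Adora2b: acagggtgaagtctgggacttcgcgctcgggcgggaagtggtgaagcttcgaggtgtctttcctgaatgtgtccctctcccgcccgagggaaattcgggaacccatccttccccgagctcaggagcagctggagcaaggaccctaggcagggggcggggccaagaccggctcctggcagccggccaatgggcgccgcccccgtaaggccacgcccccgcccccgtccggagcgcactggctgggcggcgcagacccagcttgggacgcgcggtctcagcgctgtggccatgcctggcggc

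P2rx7 and P2rx4 encode ATP-gated cation channels, the first needing high ATP and the second found largely on lysosomes in macrophages. They lie on the same strand of chromosome 5, 16111 bases apart with 1 annotated gene, Gm10064, between them. P2rx7 (ENSMUSG00000029468, 122643911 to 122691432 in mm10) stood at 140, 159 and 143 CPM in LPS-treated MOPS cultures and at 72.1, 71.5 and 70.3 CPM in LPS-treated HEPES cultures. Without LPS it stood at 233, 222 and 231 CPM in MOPS and at 192, 192 and 181 CPM in HEPES. The groups were apart from each other, with untreated MOPS highest, then untreated HEPES, and HEPES with LPS lowest. P2rx7 fell with LPS by 0.64 ± 0.043 on the log2 scale in MOPS and by 1.40 ± 0.046 in HEPES (adjusted p = 2.91e-14 and 9.52e-23, edgeR). It was 2.07-fold higher in MOPS than in HEPES with LPS (1.05 ± 0.046, adjusted p = 2.55e-18, edgeR), and 1.22-fold higher without LPS (0.28 ± 0.042, adjusted p = 1.56e-06).

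P2rx4 is ENSMUSG00000029470, from 122707544 to 122729738 in mm10. It stood at 228, 233 and 243 CPM in LPS-treated MOPS cultures and at 193, 186 and 192 CPM in LPS-treated HEPES cultures. In untreated cultures it stood at 256, 261 and 268 CPM in MOPS and at 319, 325 and 324 CPM in HEPES. No 2 of the 4 groups overlapped, and MOPS lay above HEPES with LPS and below it without LPS. P2rx4 was higher in MOPS than in HEPES with LPS (0.30 ± 0.038, adjusted p = 5.08e-08, edgeR) and lower in MOPS without LPS (-0.30 ± 0.036, adjusted p = 3.60e-08). With LPS it fell by 0.16 ± 0.037 in MOPS and by 0.76 ± 0.037 in HEPES (adjusted p = 3.23e-04 and 4.32e-18, edgeR). Scaled by total counts alone, its fall in MOPS was larger (-0.67). The RPKM of P2rx7 as a share of that of P2rx4 was 73.9% ± 5.46 in LPS-treated MOPS cultures and 44.1% ± 1.09 in LPS-treated HEPES cultures, and 103% ± 3.75 in untreated MOPS cultures and 68.7% ± 2.50 in untreated HEPES cultures (SD, n = 3 each). The share was higher in each MOPS library than in any HEPES library under the same LPS condition. It was lower in each library with LPS than in any without LPS of the same medium.

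**Figure D2:**
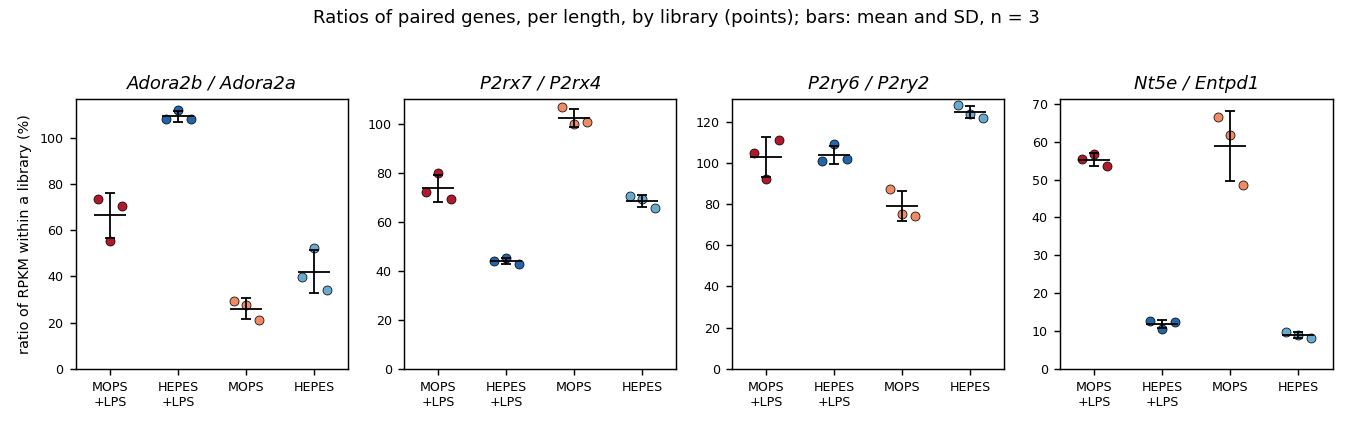
Ratio of the RPKM of paired genes within each library, in percent (linear axes from 0), with the mean and SD of 3 libraries a group as bars. The Nt5e to Entpd1 ratio lies at 48.7% to 66.5% in the 6 MOPS libraries and at 8.24% to 12.7% in the 6 HEPES libraries.

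P2ry2 encodes the receptor for ATP and UTP through which phagocytes sense dying cells, and P2ry6 the UDP receptor that promotes phagocytosis in mouse microglia. They are neighbours on the - strand of chromosome 7, 21918 bases apart with no annotated gene between them. P2ry2 (ENSMUSG00000032860, 100996568 to 101012866 in mm10) stood at 136, 140 and 136 CPM in LPS-treated MOPS cultures and at 195, 173 and 185 CPM in LPS-treated HEPES cultures. Without LPS it stood at 64.6, 68.8 and 64.8 CPM in MOPS and at 51.6, 52.4 and 50.4 CPM in HEPES. The 4 groups did not overlap, and the order of the media with LPS was the opposite of that without it. P2ry2 rose with LPS by 1.05 ± 0.045 in MOPS and by 1.84 ± 0.046 in HEPES (adjusted p = 2.48e-19 and 7.03e-26, edgeR). It was lower in MOPS with LPS (-0.43 ± 0.044, adjusted p = 8.15e-10, edgeR) and higher in MOPS without it (0.36 ± 0.047, adjusted p = 1.18e-07).

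P2ry6 (ENSMUSG00000048779, 100937630 to 100974649 in mm10) kept 1 order of the media throughout. It averaged 103 ± 8.15 CPM in LPS-treated MOPS cultures and 141 ± 3.33 CPM in LPS-treated HEPES cultures, and 38.4 ± 3.02 CPM in untreated MOPS cultures and 47.2 ± 1.73 CPM in untreated HEPES cultures (SD, n = 3 each). It rose with LPS by 1.43 ± 0.056 in MOPS and by 1.58 ± 0.0545 in HEPES (adjusted p = 8.72e-20 and 1.64e-21, edgeR). It was lower in MOPS both with LPS (-0.45 ± 0.053, adjusted p = 1.56e-08, edgeR) and without (-0.30 ± 0.058, adjusted p = 6.61e-05). Per length, P2ry6 stood at 103% ± 9.52 of P2ry2 in MOPS with LPS and 104% ± 4.33 in LPS-treated HEPES cultures, where the libraries overlapped. Without LPS the share was 79.0% ± 7.23 in MOPS and 125% ± 2.76 in HEPES, where they did not (SD, n = 3 each).

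P2ry14 encodes the receptor for UDP-glucose and had little RNA per length, at most 1.71 RPKM in any library. That value rests on a gene length of 11059 bases, the longest of the 9. In CPM, P2ry14 averaged 18.7 in untreated HEPES cultures, above Adora2a (8.45), Adora2b (2.12) and Ada (2.32). It stood at 4.11, 4.82 and 5.84 CPM in LPS-treated MOPS cultures and at 5.66, 7.29 and 6.73 CPM in LPS-treated HEPES cultures. In untreated cultures it stood at 8.02, 9.28 and 9.48 CPM in MOPS and at 18.9, 18.8 and 18.4 CPM in HEPES. HEPES without LPS was above the rest, and the media overlapped with LPS. P2ry14 fell with LPS by 0.86 ± 0.12 in MOPS and by 1.51 ± 0.11 in HEPES (adjusted p = 2.36e-07 and 7.92e-14, edgeR). It was lower in MOPS without LPS (-1.07 ± 0.099, adjusted p = 1.45e-10, edgeR) and, by a smaller margin, with it (-0.42 ± 0.13, adjusted p = 0.00869, edgeR). In the authors' deposited table the difference of P2ry14 between the media with LPS was not called (adjusted p = 0.0988). P2ry14 is ENSMUSG00000036381 on chromosome 3 from 59113855 to 59153618 in mm10. It lies opposite Med12l, whose total count over the 12 libraries was 6.95% of its own. The strand setting of the counting is not given in the sources used here, so reads of the pair may be mixed.

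P2rx7, P2rx4 and P2ry14 are the members that fell with LPS in both media, and their RefSeq promoter windows are shown together for that reason. Each runs 5′ to 3′ from 250 bases before to 50 after the annotated start nearest to the table's, in GRCm38.p6. They lie at chr5:122643677-122643976 (+) for P2rx7, chr5:122707294-122707593 (+) for P2rx4 and chr3:59153443-59153742 (-) for P2ry14, and that start lay 16, 0 and 126 bases from the table's. Their G and C content was 53.3%, 60.3% and 49.3%. Capitals mark the AP-1 motif, searched as TGANTCA on both strands, which 7.81% of all 32851 windows hold.
P2rx7: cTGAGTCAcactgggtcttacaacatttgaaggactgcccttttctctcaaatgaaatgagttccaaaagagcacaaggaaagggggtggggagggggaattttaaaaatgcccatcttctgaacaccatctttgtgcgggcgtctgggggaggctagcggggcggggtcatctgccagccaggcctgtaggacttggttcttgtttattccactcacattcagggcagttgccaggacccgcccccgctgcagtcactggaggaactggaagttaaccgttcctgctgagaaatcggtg
P2rx4: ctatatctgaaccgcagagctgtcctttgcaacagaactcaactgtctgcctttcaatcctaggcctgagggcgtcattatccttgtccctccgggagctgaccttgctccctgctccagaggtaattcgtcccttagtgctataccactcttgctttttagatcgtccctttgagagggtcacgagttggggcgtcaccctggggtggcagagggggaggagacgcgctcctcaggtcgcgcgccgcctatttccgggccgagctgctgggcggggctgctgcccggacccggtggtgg
P2ry14: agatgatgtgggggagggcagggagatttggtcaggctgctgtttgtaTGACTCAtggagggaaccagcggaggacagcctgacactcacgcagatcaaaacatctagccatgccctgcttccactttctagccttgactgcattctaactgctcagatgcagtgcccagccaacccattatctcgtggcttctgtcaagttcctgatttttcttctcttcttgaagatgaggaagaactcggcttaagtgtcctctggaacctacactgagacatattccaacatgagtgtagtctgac
The AP-1 motif was found in P2rx7 and P2ry14 at bases 2 to 8 and 49 to 55 of the window and not in P2rx4. Of the 7 members with an entry (all but Adora2a and P2ry6), no other held it. The other motifs searched on both strands were the CRE (TGACGTCA, in 1.79% of windows), the E-box (CACGTG, 7.15%), the TATA box (TATAAA, 13.6%) and the NF-kappaB motif (8.46%). P2ry2 held 1 E-box and Ada 1 NF-kappaB motif, no matches overlapped, and none of these other motifs was in the windows of Adora2b, P2rx4, P2rx7, P2ry14 or Entpd1. Only the window nearest to the table's start was searched for each gene. P2ry2, P2rx7 and Entpd1 had 2 windows each and P2ry14 had 4. The start of the P2ry2 window lay 813 bases from the table's. A match is a description of letters and not of a bound site.

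Entpd1 encodes CD39, which consumes extracellular ATP. It stood at 140, 119 and 136 CPM in LPS-treated MOPS cultures and at 242, 228 and 214 CPM in LPS-treated HEPES cultures. Without LPS it stood at 91.4, 86.7 and 95.8 CPM in MOPS and at 187, 180 and 177 CPM in HEPES. Each MOPS library was below every HEPES library, whatever the LPS condition. Entpd1 in MOPS was 0.577 times its level in HEPES with LPS (-0.79 ± 0.055, adjusted p = 1.48e-11, edgeR) and 0.503 times without LPS (-0.99 ± 0.055, adjusted p = 3.41e-13). LPS raised it by 0.53 ± 0.056 in MOPS and by 0.33 ± 0.053 in HEPES (adjusted p = 1.38e-08 and 6.85e-06, edgeR), but with libraries scaled by total counts alone the changes were 0.01 in MOPS (adjusted p = 0.834) and -0.26 in HEPES (adjusted p = 4.30e-05). Entpd1 is ENSMUSG00000048120 on chromosome 19 from 40612366 to 40741602 in mm10.

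Ada, whose product removes adenosine, had 20 to 82 counts a library. It averaged 1.14 ± 0.0806 CPM in LPS-treated MOPS cultures and 1.8 ± 0.276 CPM in LPS-treated HEPES cultures, and 1.09 ± 0.388 CPM in untreated MOPS cultures and 2.32 ± 0.402 CPM in untreated HEPES cultures (SD, n = 3 each). It was lower in MOPS without LPS (-1.11 ± 0.24, adjusted p = 2.84e-04, edgeR) and with it (-0.65 ± 0.28, adjusted p = 0.0474, edgeR). The second call was lost in 7 of 13 alternatives, among them DESeq2 (adjusted p = 0.0621) and leaving out replicate 12 of HEPES with LPS (0.137) or replicate 8 (0.0878) or 9 (0.0977) of MOPS with LPS, with 0.0388 to 0.137 over all. Its change with LPS was 0.09 ± 0.285 in MOPS and -0.37 ± 0.24 in HEPES and did not pass the test in either (adjusted p = 0.796 and 0.153, edgeR). Ada is ENSMUSG00000017697 on chromosome 2 from 163726584 to 163750239 in mm10.

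The second comparison asked what the medium did to these genes. With LPS, 2 of the 9, the channel genes P2rx7 and P2rx4, were higher in MOPS and the other 7 were lower. Of all genes tested, 53.8% were called there, 26.9% in each direction. Without LPS, P2rx7, P2ry2 and Adora2a were higher in MOPS, 5 were lower, and Adora2b was not called, where 49.7% of all genes were called, 24.3% as higher and 25.4% as lower. The median log2 change of the 9 was -0.43 with LPS and -0.30 without, beside 0.0047 and -0.014 over all genes. Groups did not overlap for 8 of 9 genes with LPS and for 8 of 9 without, as for 58.8% and 57.6% of all genes. Entpd1, P2ry6, P2ry14 and Ada were lower in MOPS under both conditions, P2rx7 was higher under both, and Adora2a, P2ry2 and P2rx4 had opposite signs, each past the threshold both times.

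**Figure D3:**
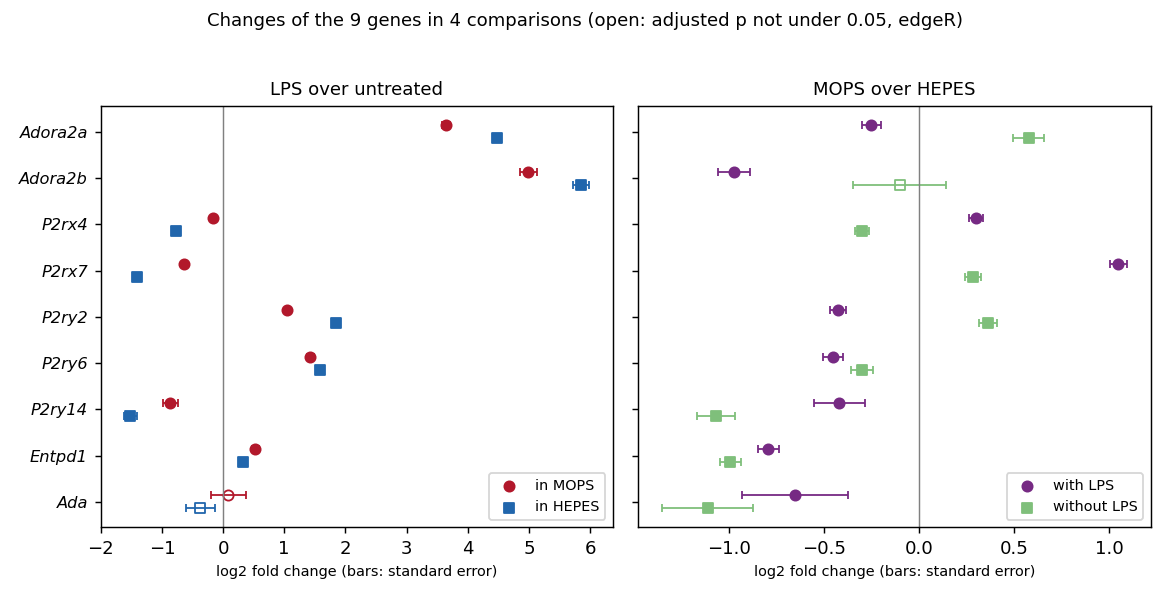
Log2 fold change of each gene by LPS (left) and by medium (right), with standard errors as bars; filled symbols passed an adjusted p under 0.05 in edgeR. P2rx4 and P2rx7 lie right of zero in MOPS over HEPES with LPS, and the LPS change of Entpd1, 0.53 in MOPS and 0.33 in HEPES as plotted, became 0.01 and -0.26 with libraries scaled by total counts alone.

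The third comparison, the interaction, set the LPS change in MOPS against that in HEPES. It was called for 7 of the 9 genes, and 39.4% of all genes were called, 21.9% as higher and 17.6% as lower. The median interaction of the 9 was 0.20, beside 0.060 over all genes. The 3 genes with a negative interaction were genes that rose less in MOPS: Adora2a by 0.83 ± 0.096, Adora2b by 0.87 ± 0.26 and P2ry2 by 0.79 ± 0.064 on the log2 scale (-0.83, -0.87 and -0.79 in MOPS minus HEPES, adjusted p = 4.12e-08, 0.0161 and 3.08e-11, edgeR). The genes that fell with LPS fell less in MOPS: the interaction was 0.77 ± 0.063 for P2rx7, 0.60 ± 0.052 for P2rx4 and 0.65 ± 0.17 for P2ry14 (adjusted p = 3.70e-11, 1.38e-10 and 0.00228, edgeR). Entpd1 had a small positive value of 0.20 ± 0.077 (adjusted p = 0.0451, edgeR). P2ry6 (-0.15 ± 0.078, adjusted p = 0.126) and Ada (0.46 ± 0.37, adjusted p = 0.351) did not pass in edgeR.

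The calls of Adora2b and Entpd1 in the interaction depended on single libraries. Adora2b was not called without MOPS replicate 1 (adjusted p = 0.0537) or 2 (0.0775), without HEPES replicate 4 (0.0632) or 6 (0.0523), or by limma-voom (0.0612), with 1.77e-06 to 0.0775 over all 18 alternatives. Entpd1 was lost in 11 of 18, with values of 0.10 to 0.27 and adjusted p of 0.00236 to 0.316. These were DESeq2, RLE size factors and leaving out 1 of 9 libraries: replicates 1 and 2 (MOPS), 4 and 5 (HEPES), 7 and 9 (MOPS plus LPS), and 10, 11 and 12 (HEPES plus LPS). P2ry6 was called without MOPS replicate 3 (-0.20, adjusted p = 0.0441) and without MOPS with LPS replicate 7 (-0.21, 0.0486) or 9 (-0.20, 0.0427), with 0.0427 to 0.437 over all.

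Around the 9 genes, a list of 54 others of the purinergic pathway was examined, of which 38 had enough counts to be tested. With LPS, 16 of the 38 were higher in MOPS and 12 lower (median log2 change 0.12), or 73.7% called beside 53.8% of all genes. Without LPS 15 were higher and 14 lower (median 0.01), or 76.3% beside 49.7%. LPS raised 14 and lowered 14 in MOPS (median -0.04), or 73.7% beside 69% of all genes. In HEPES it raised 13 and lowered 18 (median -0.32), or 81.6% beside 76.9%. In the interaction 14 were higher and 6 lower (median 0.17), or 52.6% beside 39.4%. For the changes by LPS these shares lay near those of all genes. The medians over all genes were those given above for each comparison. The 16 that were not tested had at most 12 counts in any library, among them the adenosine receptor gene Adora1, the channel genes P2rx2, P2rx3 and P2rx6, and P2ry4.

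The ectonucleotidases split. Nt5e, which encodes CD73, was higher in MOPS while Entpd1 was lower. Nt5e stood at 120, 104 and 112 CPM in LPS-treated MOPS cultures and at 47.3, 37.3 and 40.6 CPM in LPS-treated HEPES cultures. In untreated cultures it stood at 93.7, 82.4 and 71.8 CPM in MOPS and at 28.1, 24.9 and 22.5 CPM in HEPES. No MOPS library overlapped a HEPES library. The log2 difference of MOPS from HEPES was 1.42 ± 0.125 with LPS and 1.71 ± 0.126 without (adjusted p = 6.07e-06 and 1.99e-06, edgeR). Per length, Nt5e stood at 55.3% ± 1.63 of Entpd1 in MOPS with LPS against 11.9% ± 1.12 in LPS-treated HEPES cultures, and at 58.9% ± 9.22 in MOPS against 8.98% ± 0.759 in HEPES without LPS (SD, n = 3 each). Of the 9 tested genes listed as ectonucleotidases and relatives, MOPS was higher for 5 and lower for 2 both with LPS and without, where 53.8% and 49.7% of all genes were called.

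Cd38, whose product degrades NAD to ADP-ribose, averaged 625 ± 43.8 CPM in LPS-treated MOPS cultures and 466 ± 20.3 CPM in LPS-treated HEPES cultures, and 166 ± 1.12 CPM in untreated MOPS cultures and 76.4 ± 4.36 CPM in untreated HEPES cultures (SD, n = 3 each). It rose with LPS in HEPES by 2.61 ± 0.049 (adjusted p = 6.58e-28, edgeR) and less in MOPS (interaction -0.70 ± 0.066, adjusted p = 1.16e-09). Enpp1, which splits ATP into AMP and pyrophosphate, fell less with LPS in MOPS (interaction 0.77 ± 0.083, adjusted p = 1.08e-08, edgeR). Panx1, a channel for the release of ATP, averaged 17.9 ± 1.36 CPM in LPS-treated MOPS cultures and 9.33 ± 0.45 CPM in LPS-treated HEPES cultures (0.94 ± 0.086, adjusted p = 6.74e-11, edgeR). Slc28a2, a sodium-coupled carrier of purine nucleosides, averaged 9.78 ± 1.15 CPM in LPS-treated MOPS cultures and 32.9 ± 1.18 CPM in LPS-treated HEPES cultures (-1.75 ± 0.081, adjusted p = 8.63e-18, edgeR). Slc28a2 was lower in MOPS without LPS as well (-1.66 ± 0.079, adjusted p = 1.85e-17, edgeR). Ak1, an adenylate kinase, averaged 3.10 ± 0.40 CPM in untreated MOPS cultures and 0.946 ± 0.123 CPM in untreated HEPES cultures (1.71 ± 0.17, adjusted p = 8.09e-10, edgeR).

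Among the other P2 receptor genes, P2ry12, P2ry13 and P2rx1 were lower in MOPS. P2ry12 and P2ry13 encode receptors for ADP, and P2rx1 an ATP-gated channel that desensitizes fast. Without LPS, P2ry12 averaged 0.852 ± 0.156 CPM in MOPS and 5.76 ± 0.782 CPM in HEPES (-2.73 ± 0.19, adjusted p = 3.19e-13, edgeR). P2ry13, close to it on chromosome 3, averaged 0.971 ± 0.192 CPM in MOPS and 5.69 ± 0.811 CPM in HEPES (-2.54 ± 0.23, adjusted p = 7.61e-11, edgeR). P2rx1 averaged 1.66 ± 0.29 CPM in MOPS and 6.05 ± 0.497 CPM in HEPES (-1.87 ± 0.165, adjusted p = 5.03e-11, edgeR). With LPS, P2ry12 and P2ry13 were lower in MOPS as well (-1.64 ± 0.25 and -1.36 ± 0.33, adjusted p = 1.76e-06 and 7.71e-04, edgeR). P2ry10, a receptor gene for a lysophospholipid rather than a nucleotide, was higher in MOPS, by 1.96 ± 0.34 with LPS and by 1.40 ± 0.235 without (adjusted p = 1.21e-05 and 9.54e-06, edgeR). It had few counts, 9, 5 and 6 in the libraries of HEPES with LPS. P2ry10b, also listed and at group means of 28 to 41.3 CPM, went the other way. Its difference of MOPS from HEPES was -0.22 ± 0.065 with LPS and -0.40 ± 0.063 without (adjusted p = 0.00452 and 3.34e-06, edgeR). P2ry10 moved alongside the B cell markers given above, and their part in it was not tested.

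**Figure D4:**
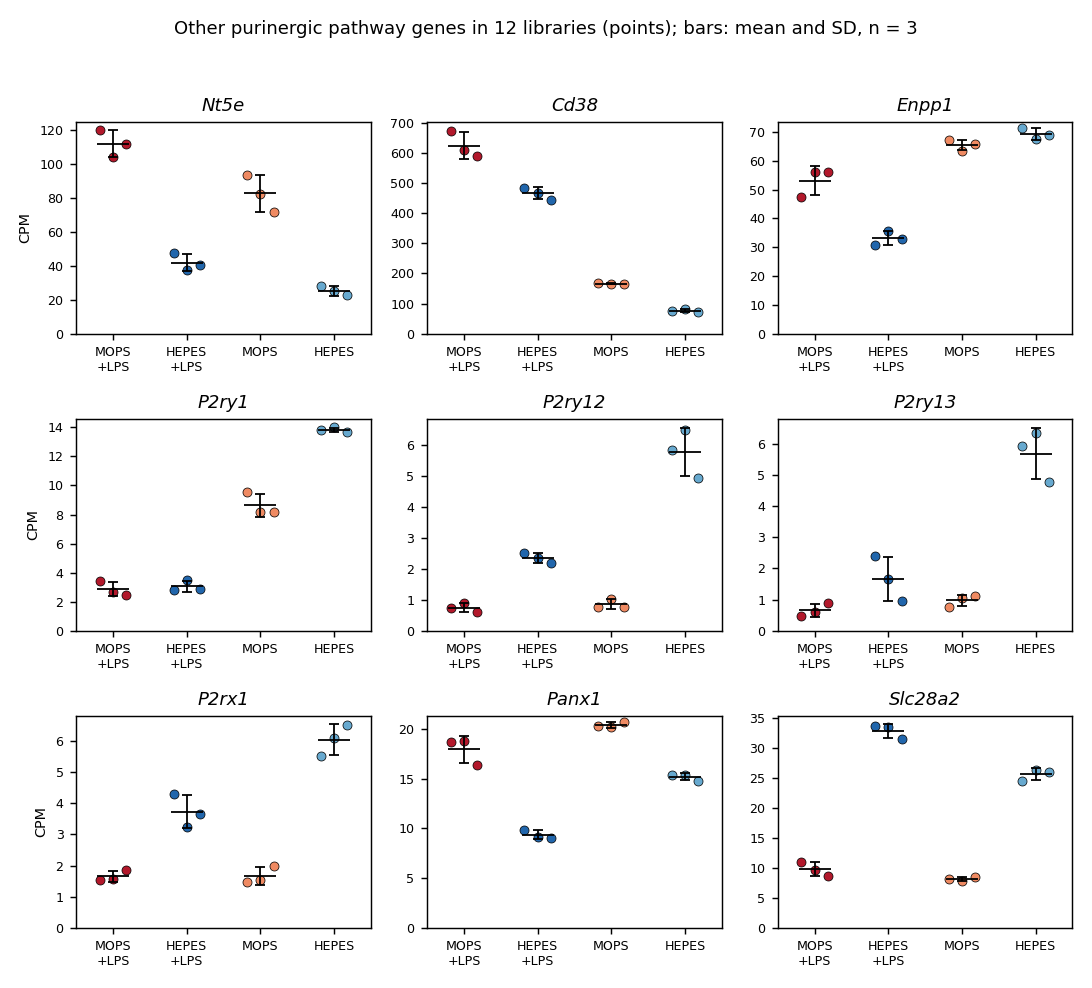
Level of 9 other purinergic pathway genes in CPM (linear axes from 0) in every library, with the mean and SD of 3 libraries a group as bars. Nt5e lies at 71.8 to 120 CPM in the 6 MOPS libraries and at 22.5 to 47.3 CPM in the 6 HEPES libraries, and P2ry12 is highest in HEPES without LPS, at 4.94 to 6.49 CPM.

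LPS moved further genes of the list. Gja1, a connexin gene, averaged 4.22 ± 0.439 CPM in LPS-treated MOPS cultures and 0.389 ± 0.0395 CPM in MOPS without (3.42 ± 0.27, adjusted p = 1.22e-12, edgeR), and 5.80 ± 1.95 CPM in LPS-treated HEPES cultures and 0.409 ± 0.0274 CPM in HEPES without (3.81 ± 0.255, adjusted p = 1.35e-14). Pnp, the purine nucleoside phosphorylase gene, averaged 63.2 ± 5.47 CPM in LPS-treated MOPS cultures and 13.3 ± 0.918 CPM in MOPS without (2.25 ± 0.065, adjusted p = 6.38e-24, edgeR). Pnp also rose in HEPES, by 2.11 ± 0.059 (adjusted p = 1.50e-24, edgeR). Mouse has a close copy, Pnp2, so reads of the pair may have been split in the counting. Ak1 rose by 2.19 ± 0.12 in MOPS and by 3.54 ± 0.15 in HEPES (adjusted p = 1.10e-16 and 6.90e-20, edgeR). P2ry1, another ADP receptor gene, fell by 1.60 ± 0.13 in MOPS and by 2.18 ± 0.13 in HEPES (adjusted p = 4.53e-12 and 4.21e-16, edgeR). Entpd6 fell by 1.42 ± 0.13 in MOPS and by 1.92 ± 0.14 in HEPES (adjusted p = 2.57e-11 and 5.92e-14, edgeR). Adal, a relative of Ada, fell by 1.38 ± 0.14 in MOPS and by 1.52 ± 0.14 in HEPES (adjusted p = 1.61e-10 and 2.56e-11, edgeR). P2ry13 fell by 1.77 ± 0.22 in HEPES (adjusted p = 2.13e-08, edgeR). In the interaction, Ak1 (-1.35 ± 0.20, adjusted p = 3.12e-06, edgeR) and the AMP deaminase gene Ampd3 (-0.45 ± 0.051, adjusted p = 2.12e-08) rose less in MOPS. P2ry12 and P2ry13 had values of 1.10 ± 0.34 and 1.18 ± 0.42 (adjusted p = 0.0108 and 0.0266, edgeR), and both calls were lost without single libraries.

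For each of the 9 genes the 2 protein-coding genes with the most similar pattern over the 12 libraries were taken among 8507 candidates with at least 10 CPM in some group. The measure was Pearson's r of log2 CPM, given as a description, since the 12 libraries fall into 4 groups that all genes share. Adora2a was most like Zswim4 (r = 0.9995) and Map2k3 (0.9988), and Adora2b like Tfec (0.9993) and Socs3 (0.9992). P2rx7 was most like Dcaf8 (0.9974) and Arhgap27 (0.9964), and P2rx4 like Wdr7 (0.9945) and Gpr65 (0.9894). P2ry2 was most like Lrrc59 (0.9989) and Surf4 (0.9981), P2ry6 like Ifngr2 (0.9968) and Atp6v1e1 (0.9963), and P2ry14 like Tnfsf12 (0.9917) and Sord (0.9888). Entpd1 was most like Npc2 (0.9927) and Ms4a7 (0.9904), the second at 42.4 CPM in LPS-treated MOPS cultures, 134.2 CPM in LPS-treated HEPES cultures, 17.4 CPM in MOPS and 79.1 CPM in HEPES. Ada, with few counts, reached no more than 0.9161, with Plxna4, and 0.9088, with Colec12.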

How the data were processed

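Each of the 12 libraries is 1 RNA-seq sample of cultured macrophages. The submitters' processing notes name CASAVA 1.8, HISAT2 2.0.5, featureCounts 1.5.0-p3 and mm10 without their roles; for the annotation release and the strand setting of the counting, the answer is not given in the sources used here. Per the file headers, the deposited values are raw counts per gene. The table's FPKM columns, made by the authors, served only to check that the gene lengths and counts go together. The authors' log2 fold changes and adjusted p-values are deposited beside them in other columns, where LPS comparisons run untreated over LPS and were turned. They had the same direction for all 36 member comparisons available and the same call for 34; the exceptions, both between the media with LPS, were P2ry14 and Ada.

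The tests on these counts used edgeR 4.0.16 in R 4.3.3: filterByExpr kept 14506 genes, TMM factors scaled the libraries, and a means model of the 4 groups was fitted to all 12 libraries with robust quasi-likelihood dispersion (8 residual degrees of freedom). The standard error is the size of the log2 change over the square root of F. P-values were adjusted over all genes tested. Libraries of 1 group differed by more than counting error (chi-square over degrees of freedom, 2.66 to 6.54). Alternatives were DESeq2 1.42.0, limma-voom (limma 3.58.1), RLE and total-count scaling, 2 other filters, fits of only the groups compared, and leaving out each library. Of the pathway list the text names up to 3 genes per direction and comparison, by largest change among those called with at least 1 CPM in the higher group, and other members for a stated reason. The genes and lists were chosen with earlier results of these data known. The method was tested on simulated data in which most genes did not change. With LPS 69% of all genes were called in MOPS and 76.9% in HEPES. The simulation therefore could not check the composition scaling on which the changes by LPS rest. Coordinates are the table's, and the 9 genes had the same ones in GENCODE vM21.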

Additional observations from a re-analysis of the deposited data

Results flagged for a closer look

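For 7 of the 9 genes the LPS change differed between the media by the test of the difference itself, the interaction in edgeR with p-values adjusted over all genes. The same test called 39.4% of all 14506 genes. On the log2 scale, MOPS minus HEPES, the difference in LPS change was -0.83 for Adora2a, -0.87 for Adora2b and -0.79 for P2ry2, which rose less in MOPS. It was 0.77 for P2rx7, 0.60 for P2rx4 and 0.65 for P2ry14, which fell less in MOPS, and 0.20 for Entpd1. The calls of Adora2b and Entpd1 were lost when single libraries were left out, as given above. Groups of 3 libraries are too small to be screened for a single library that stands apart.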

How the results depend on the processing

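The 45 changes of the 9 genes (9 genes in 5 comparisons) were recomputed 630 times under the alternatives: 598 kept their direction and side of the threshold, 24 were no longer called, 4 became called and 4 changed sign. Of these 4, Entpd1 with LPS in HEPES was the called one, 0.33 as reported and -0.26 (-0.257) when libraries were scaled by total counts alone. The others were called neither before nor after: Ada with LPS in MOPS, 0.09 as reported, was -0.42 under that scaling and -0.19 without MOPS replicate 2 (-0.19 to 0.32 with 1 library left out), and Adora2b in MOPS over HEPES without LPS, -0.10 as reported, was 0.040 without HEPES replicate 5 (-0.20 to 0.040). Scaling by total counts alone also called Ada lower with LPS in HEPES (-0.95, adjusted p = 4.73e-04); under it 20.6% of the genes called in HEPES and 18% of those in MOPS were higher, against 46.3% and 49.4%. Likewise 62.4% of calls between the media with LPS were higher in MOPS, against 50%, and 66.4% in the interaction, against 55.5%. The number of the 9 genes called was 8 in MOPS over HEPES without LPS under all alternatives, 8 to 9 with LPS, 7 to 8 for LPS in MOPS, 8 to 9 for LPS in HEPES and 5 to 8 for the interaction. Counts over all genes stayed within 1.5 times. Of the 30 named changes of pathway genes, recomputed 420 times, 414 kept call and direction; the other 6 were P2ry12 and P2ry13 in the interaction (1.10 and 1.18), lost without MOPS with LPS replicate 8 and, for P2ry13, also without MOPS replicate 1, MOPS with LPS replicate 9 or HEPES with LPS replicate 11 or 12. The cause of these losses was not tested. Among the 9 genes, depth limits Ada, with 20 to 82 counts a library, and Adora2b without LPS, with 41 to 72. No paired analysis was possible because the libraries are numbered 1 to 12 and no number is shared between groups.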

Other observations

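P2ry12 and P2ry13, the genes of the pathway list with the largest fall in MOPS without LPS, lie near P2ry14. The 3 were set side by side after their values were seen, and other genes between them were not looked up. In the table's mm10 coordinates, P2ry14 ends at 59153618 on chromosome 3, P2ry13 runs from 59207892 to 59210882 and P2ry12 from 59216272 to 59262871, all on the - strand. P2ry1 lies farther off on the same chromosome, from 61002795 to 61008982. MOPS over HEPES without LPS was -1.07 for P2ry14, -2.54 for P2ry13, -2.73 for P2ry12 and -0.68 for P2ry1 on the log2 scale, each called in edgeR. With LPS the values were -0.42, -1.36, -1.64 and -0.11, and P2ry1 was not called (adjusted p = 0.61, edgeR). P2ry12 had 11 to 19 counts a library in MOPS with LPS and P2ry13 had 9 to 16. Overlaps with other annotated genes were looked up only for the genes described first, so not for P2ry12 or P2ry13.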
